A study of Mus musculus with 12 samples.

Results

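A set of 10 genes whose level followed the mouse line, in cells from a tumour and without one, was described in 12 mouse brain cell cultures. Gdpd3 did so only in part. They were Trim13, AA388235, H60b, Ndufaf1, Crat, Rps21, Tnks1bp1, Zfp971, Stk10 and Gdpd3, read by 11 of 21780 probe sets with exactly 1 gene symbol, 10 of 19934 genes. The members were picked because tumour groups differed and the neural stem cell (NSC) cultures of the same lines differed in the same direction. Their line differences are therefore a description and carry no test. Rps21 had 2 probe sets and each other member 1, and the members belong to no common pathway.

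Each array measured 1 untreated culture. All mice lacked Arf (Arf-/-) and carried tv-a, the receptor of an avian retrovirus, under a promoter that decides which brain cells can be infected. The tumour groups were mGC1_GFAP from G/tv-a mice (Gfap promoter, active in astrocytes and stem cells), mGC2_NES from N/tv-a mice (Nes promoter, active in progenitors) and mGC3_CNP from C/tv-a mice (Cnp promoter, active in the oligodendrocyte lineage), with 3 cultures each. These glioblastomas were induced in adult brain by chicken DF-1 cells releasing a virus that encodes PDGFB. The controls were 3 NSC cultures from the subventricular zone of adult mice, 1 per line, also Arf-/- and without tumour. The labels call the tumour cultures biological replicates but do not say whether each came from its own animal, so the spread is that between cultures. With 1 line per promoter, the promoter, the transgene and the inherited background of a line cannot be told apart. Genotypes and probe sequences were not analysed here, so a changed transcript level and a changed fit of the probes to an allele cannot be told apart either.

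All values are log2 intensities as the authors summarised them, so a difference of 1 is 2-fold. Transcripts of 4 spermatid genes taken as absent from these cultures read up to 7.42, and a difference whose lower side lies at or below 7.42 is a lower bound. Oligodendrocyte precursor markers averaged 12.3 to 12.5 in tumour arrays and 9.91 to 10.1 in NSC arrays, and NSC markers 8.91 to 9.89 in tumour arrays and 11.4 to 11.6 in NSC arrays. In the microglia, endothelial, pericyte and neuron lists, 6 of 8, 4 of 6, 4 of 7 and 1 of 5 markers never read above 7.42, and none of these probe sets was called between mouse lines. In the NSC list Nr2e1 was called (limma F test adjusted p = 0.0319), at 9.40 in the G/tv-a, 8.79 in the N/tv-a and 9.21 in the C/tv-a line. Y-linked transcripts were present in 3 of 4 G/tv-a, 3 of 4 N/tv-a and 0 of 4 C/tv-a arrays. The G/tv-a NSC culture read both Xist (11.9) and Y-linked genes (mean 8.39).

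The members do different work in a cell. Trim13 is a ubiquitin ligase of the endoplasmic reticulum membrane, and AA388235 is annotated by RefSeq as a long noncoding RNA. H60b is a ligand of NKG2D, an activating receptor by which natural killer cells recognise stressed or transformed cells. Ndufaf1 helps to assemble mitochondrial complex I, and Crat moves acetyl groups between coenzyme A and carnitine. Rps21 is a protein of the small ribosomal subunit, Tnks1bp1 binds tankyrase 1, Zfp971 is a zinc finger protein gene, Stk10 is a kinase of the ezrin, radixin and moesin proteins that tie actin to the membrane, and Gdpd3 is a lysophospholipase D.

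The upstream sequence is shown for 4 members, the pair that switched in opposite directions in the N/tv-a line (Trim13 and AA388235) and a pair that was low together in the C/tv-a line and lies on chromosome 2 (Rps21 and Zfp971). Each run is the 250 bases before the gene's start in RefSeq, build GRCm38.p6, plus strand, 5′ to 3′, and for Trim13 and Rps21, with 2 starts, before the most upstream one. Capitals mark matches, on either strand, to a GC box, spelled GGGCGG, to the CCAAT box as named, and to a TATA box, spelled TATAAA. Each motif was counted on its own, overlaps included. The windows are chr14:61597976-61598225 for Trim13, chr17:33981242-33981491 for AA388235, chr2:180257129-180257378 for Rps21 and chr2:178023034-178023283 for Zfp971.
Trim13: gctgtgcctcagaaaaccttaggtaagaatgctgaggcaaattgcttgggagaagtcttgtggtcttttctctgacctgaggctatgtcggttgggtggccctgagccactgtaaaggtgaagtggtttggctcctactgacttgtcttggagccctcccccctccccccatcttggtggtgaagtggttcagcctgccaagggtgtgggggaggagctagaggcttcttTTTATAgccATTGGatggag
AA388235: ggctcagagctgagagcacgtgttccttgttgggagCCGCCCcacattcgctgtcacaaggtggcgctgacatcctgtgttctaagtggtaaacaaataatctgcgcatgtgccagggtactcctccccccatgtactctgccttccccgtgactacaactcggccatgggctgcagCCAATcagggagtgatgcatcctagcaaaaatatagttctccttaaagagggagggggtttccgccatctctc
Rps21: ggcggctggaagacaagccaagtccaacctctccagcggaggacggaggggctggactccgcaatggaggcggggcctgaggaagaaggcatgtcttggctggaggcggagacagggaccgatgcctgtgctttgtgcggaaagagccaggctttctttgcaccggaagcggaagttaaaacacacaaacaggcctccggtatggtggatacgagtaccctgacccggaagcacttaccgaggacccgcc
Zfp971: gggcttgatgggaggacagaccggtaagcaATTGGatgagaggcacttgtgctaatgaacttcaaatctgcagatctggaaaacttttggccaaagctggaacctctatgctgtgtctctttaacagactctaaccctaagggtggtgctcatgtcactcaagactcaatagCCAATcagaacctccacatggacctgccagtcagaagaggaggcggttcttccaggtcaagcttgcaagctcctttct

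The sequences belong to the reference strain C57BL/6J and not to these cultures. The Trim13 window held 1 CCAAT box and 1 TATA box, the AA388235 window 1 GC box and 1 CCAAT box, and the Zfp971 window 2 CCAAT boxes. The Rps21 window held none of the 3 motifs. Among 32851 windows of this length, 32.7% held a GC box, 33.8% a CCAAT box and 12.4% a TATA box. GC content was 53.6% for Trim13, 54.4% for AA388235, 60.8% for Rps21 and 48.8% for Zfp971, against a median of 52.4%. CpG pairs numbered 1, 8, 15 and 2 in that order, against a median of 6. A match is a description of the letters and no binding site, and no binding or methylation was measured. Of the 10 members, 7 had an entry in the promoter table.

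In all 12 arrays the N/tv-a line stood apart for Trim13 and AA388235, in opposite directions. Trim13 read 9.67, 9.63 and 10.09 in mGC1_GFAP and 9.60 in the G/tv-a NSC culture. It read 4.61, 5.03 and 4.94 in mGC2_NES and 5.32 in the N/tv-a NSC culture. Its mGC3_CNP readings were 9.34, 9.71 and 9.76, and 9.54 in the C/tv-a NSC culture. All 4 N/tv-a arrays thus lay below every other array (as in 0.523% of all probe sets), at readings below 7.42. The mean of mGC1_GFAP lay above that of mGC2_NES by at least 4.94 ± 0.17 (SE), and the G/tv-a NSC culture above the N/tv-a one by at least 4.28.

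AA388235 was the mirror image. It read 5.12, 5.04 and 5.00 in mGC1_GFAP and 4.98 in the G/tv-a NSC culture. Its mGC2_NES readings were 8.75, 9.54 and 9.24, and 8.94 in the N/tv-a NSC culture. In mGC3_CNP it read 5.06, 4.90 and 4.75, and 4.87 in the C/tv-a NSC culture. The 4 N/tv-a arrays were the highest (as in 0.422% of all probe sets), and the other 8 all read 5.12 or less. mGC2_NES exceeded mGC3_CNP by at least 4.27 ± 0.17, and the NSC cultures of these lines differed by 4.07. Across the 12 arrays the Pearson correlation of Trim13 and AA388235 was -0.99. With 2 levels per gene this says only that both separated the same 4 arrays from the other 8.

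**Figure D1:**
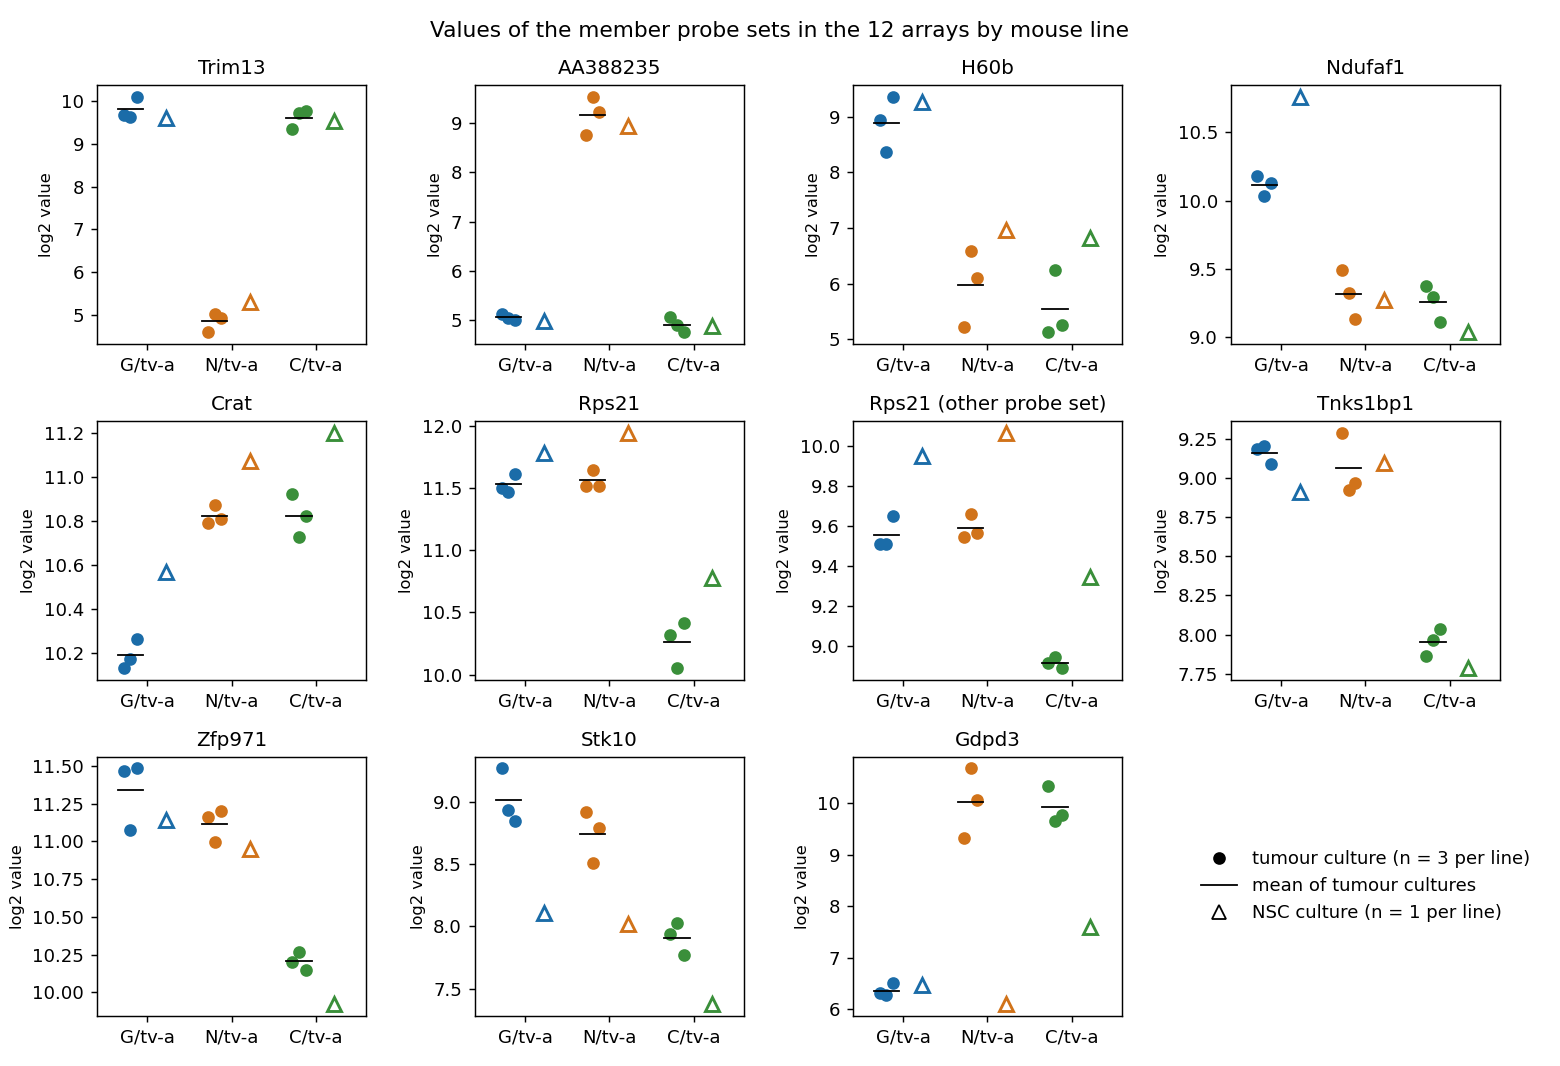
Log2 value of each of the 11 member probe sets (y axis, own scale per panel) by mouse line (x axis). Dots are the 3 tumour cultures of a line, the bar is their mean and the open triangle is the NSC culture. Trim13 reads 4.61 to 5.32 in the N/tv-a line, where AA388235 reads 8.75 to 9.54, and Gdpd3 is the panel in which the N/tv-a triangle (6.10) lies far from its dots.

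There were 3 members that set the G/tv-a line apart. H60b read 8.94, 8.36 and 9.36 in mGC1_GFAP and 9.26 in the G/tv-a NSC culture. In mGC2_NES it read 5.23, 6.59 and 6.10, and 6.96 in the N/tv-a NSC culture. Its mGC3_CNP readings were 5.13, 6.24 and 5.26, and 6.81 in the C/tv-a NSC culture. All 4 G/tv-a arrays lay above the other 8 (as in 0.693% of all probe sets), none of which reached 7.42. mGC1_GFAP exceeded mGC3_CNP by at least 3.35 ± 0.40 and mGC2_NES by at least 2.91 ± 0.40, and the G/tv-a NSC culture exceeded the C/tv-a and N/tv-a NSC cultures by at least 2.44 and 2.30. The 5 markers of natural killer and T cells, Klrk1 (the gene of the NKG2D receptor) among them, never read above 7.42.

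Ndufaf1 was higher in the same line. It read 10.18, 10.03 and 10.13 in mGC1_GFAP and 10.76 in the G/tv-a NSC culture, against 9.49, 9.33 and 9.14 in mGC2_NES and 9.27 in the N/tv-a NSC culture. The C/tv-a line lay close to the N/tv-a line, with 9.37, 9.29 and 9.11 in mGC3_CNP and 9.04 in its NSC culture. The difference of the G/tv-a from the C/tv-a line was larger between NSC cultures (1.72) than between tumour groups (0.85 ± 0.10), and whether these sizes differ was not tested.

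Crat ran the other way, with the G/tv-a line lowest. It read 10.13, 10.17 and 10.26 in mGC1_GFAP and 10.57 in the G/tv-a NSC culture. Its mGC2_NES readings were 10.79, 10.87 and 10.81, with 11.07 in the N/tv-a NSC culture, and in mGC3_CNP 10.92, 10.73 and 10.82, with 11.20 in the C/tv-a NSC culture. The shift was small, -0.64 ± 0.07 for mGC1_GFAP minus mGC3_CNP and -0.64 between the NSC cultures, yet all 4 G/tv-a arrays lay below the other 8 (as in 0.436% of all probe sets). mGC2_NES and mGC3_CNP means differed by less than 0.01, under their SE of 0.07.

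A further 4 members were low in the C/tv-a line. Rps21 read 11.50, 11.47 and 11.61 in mGC1_GFAP and 11.78 in the G/tv-a NSC culture, and 11.52, 11.64 and 11.52 in mGC2_NES and 11.94 in the N/tv-a NSC culture. In mGC3_CNP it read 10.32, 10.05 and 10.42, and 10.78 in the C/tv-a NSC culture. Thus the highest C/tv-a array, the NSC culture, lay below the lowest array of the other lines (all C/tv-a arrays lay lowest in 0.317% of all probe sets). mGC2_NES exceeded mGC3_CNP by 1.30 ± 0.10, and the NSC cultures differed by 1.17. The other Rps21 probe set, tied in the annotation to a single predicted transcript, read 8.89 to 9.34 in the C/tv-a arrays and 9.51 to 10.07 in the others. Ribosomal protein genes have many near-identical copies, so neither probe set can be assigned to the gene alone.

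Tnks1bp1 read 9.18, 9.21 and 9.09 in mGC1_GFAP and 8.91 in the G/tv-a NSC culture. In mGC2_NES it read 9.29, 8.92 and 8.97, with 9.10 in the N/tv-a NSC culture. Its mGC3_CNP readings were 7.86, 7.97 and 8.04, with 7.79 in the C/tv-a NSC culture. All 4 C/tv-a arrays lay below the other 8, and the G/tv-a and N/tv-a lines overlapped. The tumour difference was 1.21 ± 0.10 for mGC1_GFAP minus mGC3_CNP, and the NSC difference was 1.12.

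Zfp971 read 11.47, 11.08 and 11.48 in mGC1_GFAP and 11.15 in the G/tv-a NSC culture. Its mGC2_NES readings were 11.16, 10.99 and 11.20, with 10.95 in the N/tv-a NSC culture. In mGC3_CNP it read 10.20, 10.27 and 10.15, with 9.92 in the C/tv-a NSC culture. Here too the C/tv-a arrays did not overlap the rest. Zfp971 lies in a cluster of closely related zinc finger genes, and another 4 probe sets that list it among 14 to 18 symbols, 2 of them with identical values, were left out by the rule. In each of these 4 the C/tv-a arrays also lay below all the others, for example at 9.40 to 9.64 against 9.92 to 10.55 in probe set 10479217. Which gene of the cluster the probes read is therefore uncertain.

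Stk10 read 9.27, 8.94 and 8.85 in mGC1_GFAP and 8.11 in the G/tv-a NSC culture. In mGC2_NES it read 8.92, 8.51 and 8.79, with 8.02 in the N/tv-a NSC culture. Its mGC3_CNP readings were 7.94, 8.02 and 7.77, with 7.38 in the C/tv-a NSC culture. Stk10 was lowest in the C/tv-a line among tumours and among NSC cultures taken separately. Over all 12 arrays the C/tv-a line overlapped the rest, since the highest mGC3_CNP culture reached the N/tv-a NSC culture.

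The C/tv-a line was also the one without Y-linked transcripts. The arrays without them in the other lines, mGC1_GFAP replicate 3 and mGC2_NES replicate 2, read 11.61 and 11.64 for Rps21, 9.09 and 8.92 for Tnks1bp1, 11.48 and 10.99 for Zfp971, and 8.85 and 8.51 for Stk10. All of these lay above every C/tv-a array. The part of sex in the low C/tv-a values was not tested.

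Gdpd3 followed the line only in part. It read 6.31, 6.27 and 6.50 in mGC1_GFAP and 6.46 in the G/tv-a NSC culture. Its mGC2_NES readings were 9.32, 10.68 and 10.07, but 6.10 in the N/tv-a NSC culture. In mGC3_CNP it read 10.35, 9.66 and 9.77, and 7.60 in the C/tv-a NSC culture. Among the NSC cultures only that of the C/tv-a line was above 7.42, by a small margin, and the N/tv-a NSC culture was the lowest of the 12 arrays. For mGC1_GFAP minus mGC3_CNP the difference was -3.56 ± 0.30, and between the NSC cultures -1.14, both bounds since the G/tv-a readings lay below 7.42. For mGC1_GFAP minus mGC2_NES it was -3.66 ± 0.30, while the NSC cultures differed by 0.36 in the opposite direction, with both below 7.42.

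**Figure D2:**
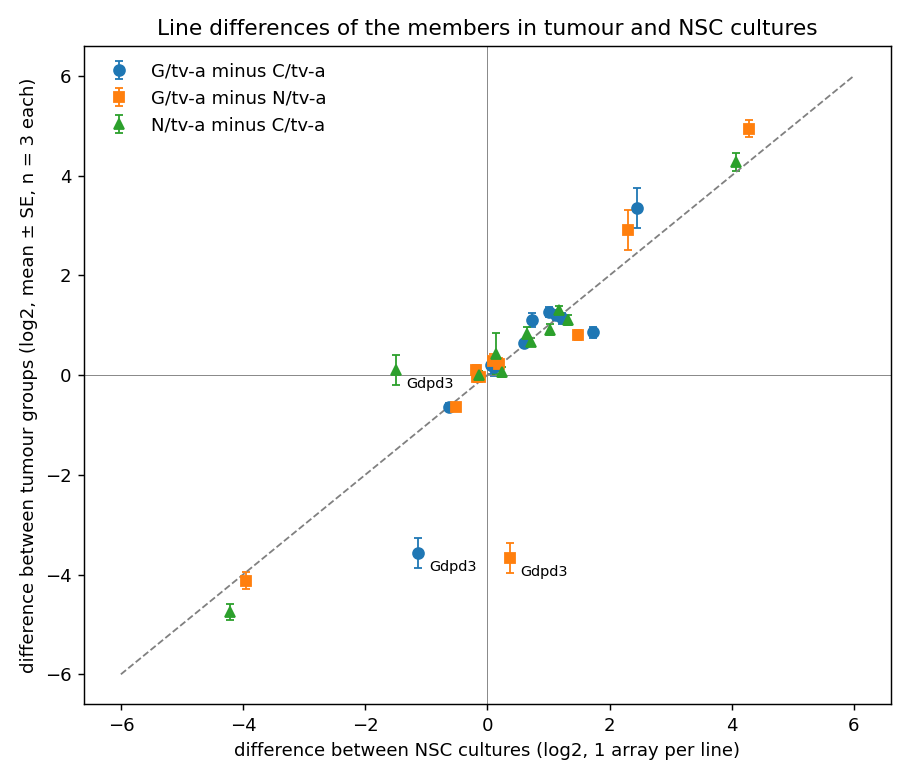
Difference between tumour groups (y axis, log2, estimate ± SE, n = 3 each) against that between the matching NSC cultures (x axis, log2, 1 array each) for the 11 member probe sets in the 3 pairs of lines. The dashed line marks equal differences. Tumour differences span -4.75 to 4.94, and the 3 Gdpd3 points lie farthest from the line.

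In tumour cultures, limma called 106 probe sets for mGC1_GFAP minus mGC3_CNP (0.487% of those tested), 1336 for mGC1_GFAP minus mGC2_NES (6.13%) and 100 for mGC2_NES minus mGC3_CNP (0.459%). Every member was called in at least 1 of these, as the choice of members required, and nothing is read from it. Calls that were at least 2-fold in tumours and at least 2-fold in the same direction between NSC cultures numbered 7, 16 and 14 in the 3 comparisons. Members made up 5, 3 and 4 of these. Lgr5 and Rerg were the nonmembers among the 7, named after their values were seen. Ndufaf1, Crat and Stk10 did not reach 2-fold in both kinds of culture in any comparison. Over all 12 arrays, with tumour or NSC as a term, 356 probe sets (1.63%) differed between lines by limma's F test, all 11 of the members among them by choice. In 530 probe sets (2.43%), the 4 arrays of 1 line lay wholly above or below the other 8, and 9 of the 11 member probe sets did so, Stk10 and Gdpd3 being the exceptions.

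The comparison of tumour with NSC cultures was not itself used to pick the members, and it gave the test for them. The values of the NSC cultures did enter the choice. Gdpd3 and Stk10 rose and Crat and the other Rps21 probe set fell. Trim13, AA388235, H60b, Tnks1bp1, Zfp971, Ndufaf1 and the first Rps21 probe set did not pass. In all, 4 of 11 member probe sets were called, against 36.7% of all probe sets (8004 of 21780). Of the 4, 2 rose (17.6% of all probe sets) and 2 fell (19.2%). The test set the 3 tumour groups, weighted equally, against the NSC group. In it the differences between lines count as spread among the NSC arrays. The members were picked for such differences, which can widen their errors. Their share called is therefore not a like comparison with all probe sets, and nothing is read from it. With the mouse line as a term, chosen after the values of the members were seen, the differences are equal, the spread is that within lines, and 5 of 11 were called, against 35.9% of all (2 higher, against 17.1%, and 3 lower, against 18.8%).

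Stk10 was higher in all 9 tumour cultures than in the NSC culture of their line. The tumour mean was 8.56 ± 0.53 (SD, n = 9) and the NSC mean 7.83 ± 0.40 (SD, n = 3), a difference of 0.72 ± 0.15 (SE, limma adjusted p = 0.00256). Within lines it was 0.91 for G/tv-a, 0.72 for N/tv-a and at least 0.53 for C/tv-a, whose NSC culture read 7.38, below 7.42. The order of the lines, with G/tv-a highest and C/tv-a lowest, was the same in both kinds of culture. That follows in part from how the members were picked. G/tv-a stood above N/tv-a by only 0.28 ± 0.14 (SE) between tumour groups and 0.09 between NSC cultures.

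Crat and Rps21 were lower in all 9 tumour cultures than in the NSC culture of their line. Crat averaged 10.61 ± 0.32 in tumour cultures (SD, n = 9) and 10.95 ± 0.34 in NSC cultures (SD, n = 3), a difference of -0.34 ± 0.11 (limma adjusted p = 0.0301). It lost the call without the C/tv-a NSC culture (-0.21), the N/tv-a NSC culture (-0.27) or mGC3_CNP replicate 2 (-0.32), and kept it with the mouse line as a term (adjusted p = 6.77e-04). Rps21 averaged 11.12 ± 0.65 in tumour cultures (SD, n = 9) and 11.50 ± 0.63 in NSC cultures (SD, n = 3). Its difference of -0.38 ± 0.19 did not pass (limma adjusted p = 0.150), but with the mouse line as a term, -0.38 ± 0.08, it did (adjusted p = 0.0026). Leaving out 1 NSC culture unbalances the lines, and Rps21 was called at -0.75 without that of the C/tv-a line, its lowest, but was at -0.16 without that of the N/tv-a line (adjusted p = 0.605) and -0.24 without that of the G/tv-a line (adjusted p = 0.466). The other Rps21 probe set differed by -0.43 ± 0.12 (limma adjusted p = 0.0141), and without the N/tv-a or the G/tv-a NSC culture the call was lost at -0.29 or -0.35.

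Gdpd3 averaged 8.77 ± 1.85 in tumour cultures (SD, n = 9) and 6.72 ± 0.78 in NSC cultures (SD, n = 3). The fitted difference was 2.05 ± 0.31 (limma adjusted p = 2.96e-04), and as readings below 7.42 stood on both sides its size is not a bound. Within lines the tumour mean minus the NSC culture was -0.10 for G/tv-a, 3.92 for N/tv-a and 2.32 for C/tv-a. The call was kept without each array in turn, at 1.74 to 2.49.

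H60b was lower in 8 of 9 tumour cultures than in the NSC culture of their line, by -0.37 for G/tv-a, -0.99 for N/tv-a and -1.27 for C/tv-a. The difference of -0.88 ± 0.49 did not pass (limma adjusted p = 0.197), nor did it with the mouse line as a term (adjusted p = 0.0515). Without the G/tv-a NSC culture it was -0.09, and over all arrays left out in turn it reached -1.31. In the N/tv-a and C/tv-a lines all readings lay below 7.42. Zfp971 was higher in 8 of 9 tumour cultures, at 0.22 ± 0.20 (adjusted p = 0.468). Tnks1bp1 differed by 0.13 ± 0.21 (adjusted p = 0.707) and Ndufaf1 by -0.12 ± 0.27 (adjusted p = 0.779). Without the G/tv-a NSC culture, its highest array, Ndufaf1 was called at 0.41. Without the C/tv-a NSC culture, the lowest of the NSC arrays for both, Zfp971 stood at -0.16 and Tnks1bp1 at -0.28 (adjusted p = 0.0548), the opposite sign.

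The difference of Trim13 was -0.07 ± 0.70 (limma adjusted p = 0.958) and that of AA388235 was 0.11 ± 0.66 (adjusted p = 0.922). With the mouse line as a term the errors shrank to 0.15 and 0.13, and neither passed (adjusted p = 0.791 and 0.565). Without the N/tv-a NSC culture both were called, at -1.48 and 1.45, since the remaining NSC cultures then lacked the line that the tumour mean still held. Without the C/tv-a or the G/tv-a NSC culture both changed sign uncalled, Trim13 to 0.63 or 0.66 and AA388235 to -0.58 or -0.53.

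**Figure D3:**
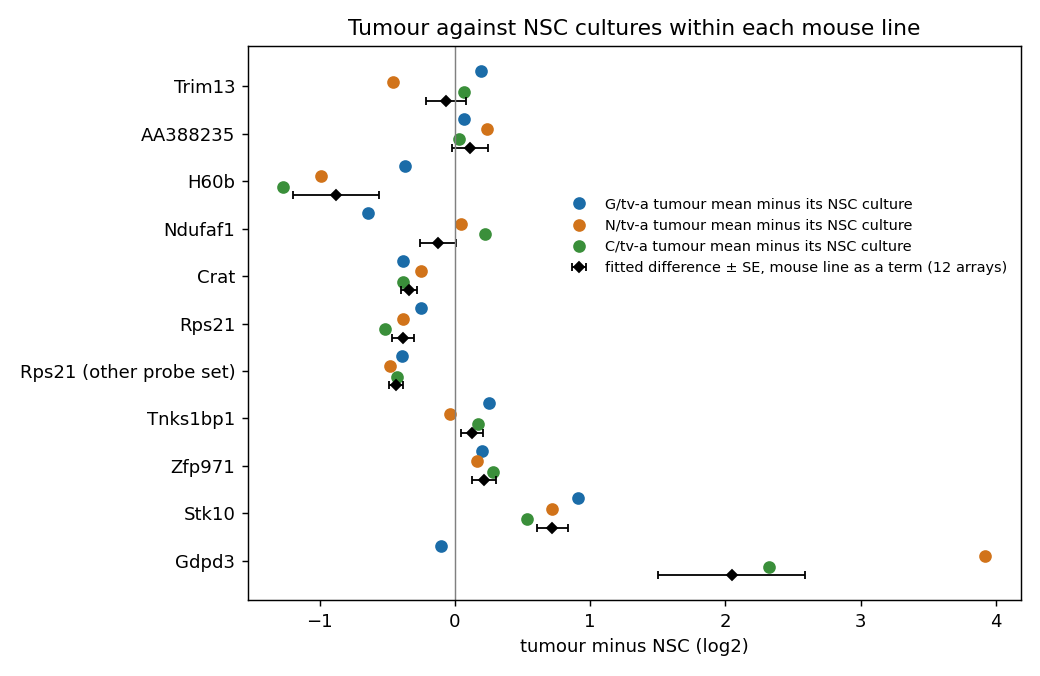
Tumour minus NSC difference (x axis, log2) for the 11 member probe sets (y axis). Coloured dots are the mean of 3 tumour cultures minus the NSC culture of the same line, and the black diamond is the limma estimate ± SE over 12 arrays with the mouse line as a term. Stk10 lies right of 0 in all lines, Crat and both Rps21 probe sets left of 0 in all lines, and the Gdpd3 dots spread from -0.10 to 3.92.

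The members were then placed along the chromosomes. Of the 10, 5 lie on chromosome 2 (Crat, Tnks1bp1, Ndufaf1, Zfp971 and Rps21), and the rest lie on chromosomes 7 (Gdpd3), 10 (H60b), 11 (Stk10), 14 (Trim13) and 17 (AA388235). Chromosome 2 carried 8.45% of the probe sets tested and 13.8% of those called between lines by the F test over 12 arrays, 49 of 1840 (2.66%) against 1.63% of all. On the other autosomes the share called ran between 0.671% on chromosome 14 and 2.80% on chromosome 13. Of the 69 probe sets whose C/tv-a arrays all lay below the rest, 14 were on chromosome 2. These counts hold 6 and 4 member probe sets that were chosen for such differences. Without the members, chromosome 2 had 43 of 1834 called (2.34%), against 1.58% of all nonmember probe sets, and 10 of the 65 with the C/tv-a arrays lowest. All are counts, with neighbouring genes not independent of each other. The chromosome 2 members did not share a pattern, as Rps21, Tnks1bp1 and Zfp971 set the C/tv-a line apart and Ndufaf1 and Crat the G/tv-a line.

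**Figure D4:**
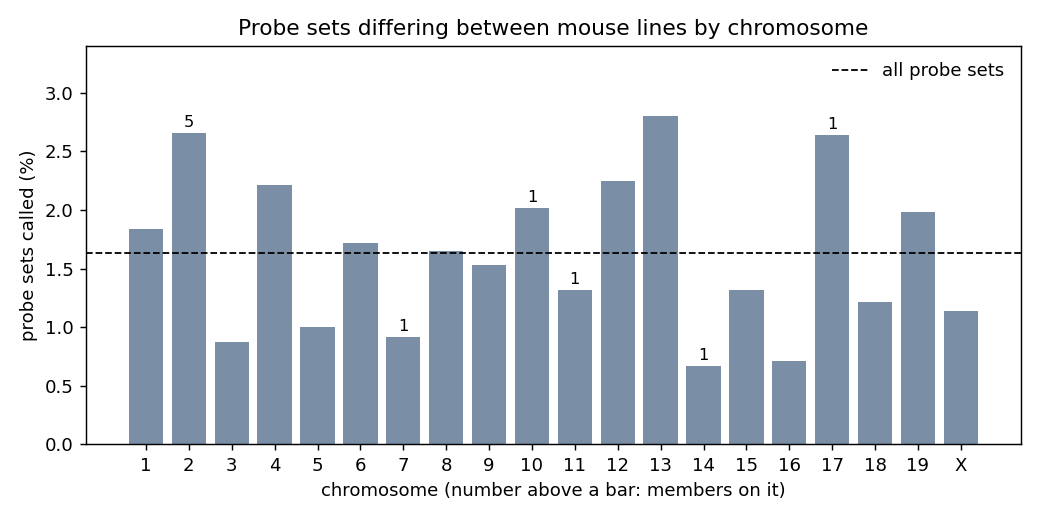
Share of probe sets called between mouse lines by limma's F test over 12 arrays (y axis, percent) on each autosome and the X chromosome (x axis). The dashed line is the share over all probe sets, 1.63%, and the number above a bar counts the members on that chromosome. Chromosome 2, with 5 members, stands at 2.66% and chromosome 13, with none, at 2.80%.

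The 5 nearest measured genes on each side of every member, 100 genes in all, were described in the same way. Of their 108 probe sets, 3 (2.78%) were called by the F test between lines, against 1.63% of all, and 13 (12%) in a comparison of tumour groups, against 6.30% of all. The median of the largest difference between any pair of lines was 0.16 for the neighbours and 0.13 for all probe sets. It was 1.19 for the member probe sets, which were picked for such differences, and nothing is read from that gap. The largest neighbour differences were 2.13 near H60b, 1.09 near Zfp971, 0.91 near Trim13 and 0.90 near Crat. Around Trim13, Rps21, Tnks1bp1, Zfp971, Gdpd3, Ndufaf1 and Stk10, limma's F test called 0 neighbours. Of their 10 or 11 probe sets each, 2, 4, 0, 5, 2, 4 and 0 had an unadjusted p under 0.05. Over all probe sets 3627 of 21780 did. An absence of calls does not show equal levels between lines.

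Near H60b a related gene also differed between lines. Its next measured gene, Raet1d, is another NKG2D ligand gene and the only other ligand of that list measured with its own probe set. Raet1d read 7.86, 7.28 and 9.25 in mGC1_GFAP and 9.37 in the G/tv-a NSC culture. It read 6.01, 6.55 and 6.92 in mGC2_NES and 7.56 in the N/tv-a NSC culture, and 5.30, 6.40 and 6.07 in mGC3_CNP and 7.47 in the C/tv-a NSC culture. The lines overlapped, as mGC1_GFAP replicate 2 lay below both other NSC cultures, but within tumours and within NSC cultures G/tv-a was highest. The G/tv-a line lay above the C/tv-a line by 2.13 ± 0.38 and above the N/tv-a line by 1.68 ± 0.38, with readings below 7.42 in all lines (limma F test adjusted p = 0.0334). Raet1d read lower in tumour than in NSC cultures, at a difference of -1.29 ± 0.46 (limma adjusted p = 0.0486), a bound since the tumour mean lay below 7.42. The difference of H60b had the same sign but did not pass. The nearest gene on the other side and the next one beyond Raet1d, both predicted genes, also had their highest line mean in G/tv-a, and neither passed the F test.

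Beside AA388235, Vps52, a gene of vesicle tethering, was called between lines (limma F test adjusted p = 0.0267). Its N/tv-a arrays were the lowest, at a mean of 10.16 against 10.51 in the G/tv-a and 10.60 in the C/tv-a line. Ring1 and Wdr46 near AA388235 were called only between tumour groups. Beside Trim13, Kcnrg averaged 5.70 in the N/tv-a arrays, against 6.31 in the G/tv-a and 6.25 in the C/tv-a arrays, without overlap but all below 7.42 and short of the threshold (limma F test adjusted p = 0.0592). Near Crat, 1 predicted gene was called by the F test (limma adjusted p = 1.9e-04), with all 4 G/tv-a arrays below the other 8 as for Crat. Its G/tv-a mean was lower than its C/tv-a mean by more than that of Crat, at -0.90 against -0.64, though its G/tv-a readings lay below 7.42. Dolk and Nup188, also near Crat, were called only between tumour groups. Chp1, Exd1 and Nusap1 near Ndufaf1, Coro1a and Tlcd3b near Gdpd3, and 1 predicted gene each near H60b and Zfp971 were also called only between tumour groups.

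**Figure D5:**
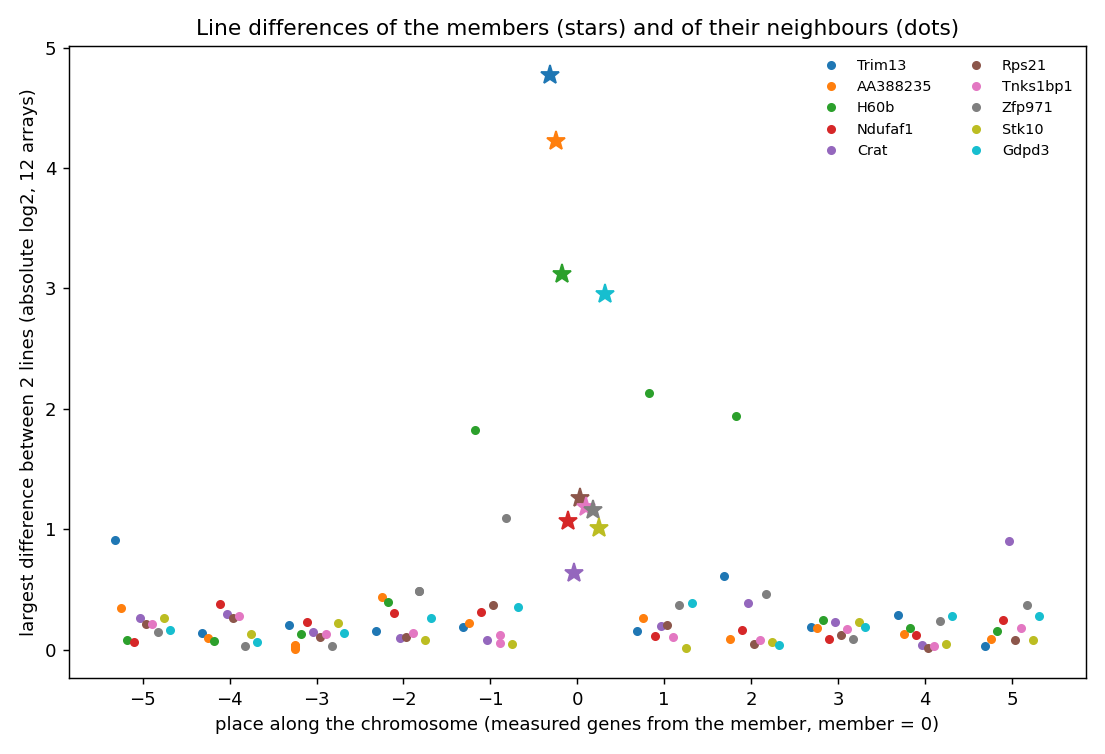
Largest difference between any pair of mouse lines (y axis, absolute log2, 12 arrays) for each member (star, place 0) and for its 5 nearest measured genes on each side (dots; x axis, place along the chromosome). Colours are members. Stars reach 4.77 for Trim13, while among neighbours 3 genes around H60b stand at 1.83 to 2.13.

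The relatives of the members in their pathways were counted in the same F test between lines. It called 1.63% of all probe sets, and 3627 of 21780 had an unadjusted p under 0.05. Raet1d, described above, was called. Of the 12 other complex I assembly factors measured, 1 was called between lines, with 3 at an unadjusted p under 0.05 (Ecsit, limma F test adjusted p = 0.0468), lowest in the N/tv-a line at 9.07 against 9.40 in the G/tv-a and 9.50 in the C/tv-a line. Among 80 probe sets of 20 other small ribosomal subunit genes, 2 were called, against 1.63% of all, with 19 at an unadjusted p under 0.05. Between tumour groups 11 of the 80 were called, against 6.30% of all. One Rps2 probe set was lower in the C/tv-a line by 0.63 than in the N/tv-a line, as Rps21 was, but another 2 Rps2 probe sets differed by 0.11 and -0.03. One Rps9 probe set was lowest in the N/tv-a line. In the other lists limma's F test called 0 of 6 phosphodiesterase genes related to Gdpd3 (0 at an unadjusted p under 0.05), 0 of 6 carnitine acyltransferase and carrier genes (2), 0 of 5 genes of the ezrin, radixin and moesin group (3), 0 of 14 probe sets of tankyrase and CCR4-NOT genes (2) and 0 of 6 genes around Trim13 or related to it (2). With 1.63% of all probe sets called, 0 calls in lists this short are near the background, and nothing is read from them. The median line differences of these 5 lists lay between -0.21 and 0.19, and over all probe sets none was farther from 0 than 0.01.

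In tumour against NSC cultures the relatives of a member moved its way in some lists and the other way in others, and no difference between relatives and members was tested. Stk10 rose, and of its substrates Msn (-1.47 ± 0.14, limma adjusted p = 6.54e-06), Ezr (-1.11 ± 0.28, adjusted p = 0.0075) and Rdx (-0.20 ± 0.06, adjusted p = 0.0228) were lower in tumour cultures. Slk, the kinase closest to Stk10, differed by 0.17 ± 0.08 and did not pass (adjusted p = 0.136). Among the relatives of Gdpd3, Gdpd5 (0.84 ± 0.09) and Gpcpd1 (0.66 ± 0.07) rose and Gdpd2 fell by at least 3.25 ± 0.11 (limma adjusted p = 1.61e-09). Of 6 carnitine acyltransferase and carrier genes other than Crat, 1 was called and 5 did not pass. It was Cpt1a, the entry enzyme of mitochondrial fatty acid import, which rose by 0.54 ± 0.18 (limma adjusted p = 0.0303). Of 12 other complex I assembly factors, 1 rose, 5 fell and 6 did not pass. Of 14 tankyrase and CCR4-NOT probe sets, 1 rose, 1 fell and 12 did not pass. Among 6 genes around Trim13 or related to it, 1 rose, 1 fell and 4 did not pass. Of the 80 small ribosomal subunit probe sets, in the list of Rps21, 0 rose, 31 fell and 49 did not pass. Their median was -0.14 against 0.01 over all probe sets. They read only 20 genes, and probe sets of the same gene are not independent, so these are not counts of genes. The background was 17.6% higher and 19.2% lower.

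The genes closest to each member across the 12 arrays, in the same or the opposite direction, were picked from all probe sets. The size of the Pearson correlation, whatever its sign, was used. This is a description, since the arrays share their line and the best of 21780 will always be high. L3hypdh, Pttg1 and Ndufs5 were the closest for both Trim13 and AA388235. L3hypdh, an enzyme of hydroxyproline breakdown, had r = 0.96 with Trim13 and -0.98 with AA388235, and read 7.07 to 7.62 in the N/tv-a arrays and 8.68 to 8.90 in the others. Pttg1, the securin that guards chromosome separation, read 7.54 to 8.04 in the N/tv-a arrays and 9.19 to 9.79 in the others. Ndufs5, a complex I subunit, read 9.11 to 9.59 in the N/tv-a arrays and 8.07 to 8.51 in the others. They lie on chromosomes 12, 11 and 4, away from both members.

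For the members low in the C/tv-a line the closest genes were Rnf151 and 1 of 2 probe sets of Pcnp, both higher there, for Tnks1bp1 and Zfp971, Arv1 for Tnks1bp1 and Ndufb10 for Zfp971. Klhdc4 and Arap3 were among the closest 3 of both Rps21 probe sets, with Mlst8 for 1 and Prss41 (r = -0.93) for the other. All Arap3 readings lay below 7.42. Bloc1s1, Slc25a45 and Pkig were the closest to Stk10, all in the opposite direction (r = -0.95, -0.93 and -0.93). Rnf151, with r = -0.97 to Zfp971, read 7.26 to 7.49 in the C/tv-a arrays and 6.68 to 6.87 in the others, mostly below 7.42. For the members apart in the G/tv-a line they were Rpl38, Selenow and Adat2 for H60b, Ppp1r12b, Acp6 and Nckap1 for Crat, and Smpx, Rbfa and Sart1 for Ndufaf1. Adat2, an enzyme of transfer RNA editing on chromosome 10 with H60b, read 9.60 to 9.68 in the G/tv-a arrays and 10.34 to 10.63 in the others (r = -0.93). Sfrp1, a secreted Wnt antagonist, was the closest to Gdpd3 (r = 0.95), followed by Mpv17l and Evi5, and none of these passed the F test. Sfrp1 read 12.26, 12.21 and 12.60 in mGC2_NES and 12.40, 11.71 and 11.30 in mGC3_CNP. Its readings were 8.52, 9.76 and 9.46 in mGC1_GFAP, and 9.19 to 9.89 in NSC cultures.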

How the data were processed

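Expression Console from Affymetrix and its RMA method, per the submitters' processing notes, gave the deposited log2 values, 1 per probe set and array (versions and annotation release not given in the sources used here). RMA scales arrays to a common distribution, so a shift shared by most genes is hidden. They were used as deposited (28270 probe sets). Exactly 1 symbol in the 2016 platform annotation was given for 21780, which were tested. RefSeq GRCm38.p6 gave chromosomes and gene order for 21686. Tests used limma 3.58.1 in R 4.3.3 (lmFit, eBayes, two-sided, Benjamini-Hochberg over all 21780, called at an adjusted p under 0.05), after a check on simulated data. Pairs of tumour groups were fitted on 9 arrays, tumour minus NSC on 12 arrays in 4 groups, and mouse line on 12 arrays with tumour or NSC as a term. Arrays hold no read depth, so their number limits the precision. Members and lists were chosen with earlier results of these data known. All members are named, also called neighbours (5 genes each side, predicted genes only counted), list members called between lines and the 3 most correlated genes per member. Alternatives were scaling, a filter, the variance prior, all probe sets, a replicate block and leaving out each array.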

Additional observations from a re-analysis of the deposited data

Results flagged for a closer look

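Among 44 sets of 9 tumour arrays or of the 4 arrays of a line, 2 held an array set off from the rest by Dixon's criterion. In sets without groups chance gives about 1 in 20. The sets of 9 tumour arrays pool 3 groups that differ for the members, so this rate does not hold for them. For Trim13 mGC1_GFAP replicate 3 was high within the G/tv-a line, at 10.09. For the Rps21 probe set tied to a predicted transcript the C/tv-a NSC culture was high within its line, at 9.34.

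For 2 members every tumour culture of 1 line lay above and every tumour culture of another below the NSC culture of its line, a contrast between lines that was not tested. Trim13 tumours lay above theirs in the G/tv-a line (0.20 on average) and below it in the N/tv-a line (-0.46), where all readings were at background. Ndufaf1 tumours lay below theirs in the G/tv-a line (-0.64) and above it in the C/tv-a line (0.22).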

How the results depend on the processing

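Leaving out 1 array at a time, the number of probe sets called ran from 6777 to 8114 for tumour minus NSC (8004 with all arrays), from 121 to 791 for mouse line over 12 arrays (356), from 24 to 106 for mGC1_GFAP minus mGC3_CNP (106), from 534 to 1619 for mGC1_GFAP minus mGC2_NES (1336) and from 42 to 133 for mGC2_NES minus mGC3_CNP (100). With all probe sets tested, mGC1_GFAP minus mGC3_CNP gave 165 and mGC2_NES minus mGC3_CNP 164, and with 12 arrays in 4 groups mGC1_GFAP minus mGC3_CNP gave 65. Other counts stayed within 1.5 times under the settings run. With the replicate number as a block the 3 pairs gave 74, 1436 and 121 calls. The labels do not say that a number is shared between groups, and the cultures were not treated as paired, since deviations of same-numbered arrays correlated above 0.1 in 5 of 9 pairs and not in all. All 9 correlations were positive (0.00224 to 0.254), and 6 of 9 arrays correlated best with their own number, a hint of pairing from the data. Without 1 array at a time, tumour minus NSC changed sign for Ndufaf1 (-0.45 to 0.41), Trim13 (-1.48 to 0.66), AA388235 (-0.58 to 1.45), Tnks1bp1 (-0.28 to 0.38) and Zfp971 (-0.16 to 0.45), each time without 1 NSC culture. Rps21 ran from -0.75 to -0.16 and H60b from -1.31 to -0.09. The line differences recomputed, 1 per member probe set, kept their sign and moved by less than 1 SD under every setting run for them.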
